A study of Mus musculus with 9 samples.

Results

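The tubulin isotypes examined were 10 genes, chosen by name in the read count table: the beta-tubulins Tubb1, Tubb2a, Tubb3, Tubb4b, Tubb5 and Tubb6 and the alpha-tubulins Tuba1a, Tuba1b, Tuba4a and Tuba8. They were 10 of 46078 genes in the table, and all 10 passed the filter on low counts that left 15937 genes to test. BM ECs of B6 wild type mice had been sorted as CD45-Ter119-CD31+ cells and divided by Sca-1, the surface antigen encoded by Ly6a, into a Sca-1+ and a Sca-1- fraction. The polyA RNA of 4 Sca-1+ and 5 Sca-1- libraries was sequenced after low-input amplification. The ages of the mice are not given in the sources used here, and no source states that the libraries of a fraction came from separate animals, so p-values measure the spread between these libraries. The paper describes ECs with high Sca-1 as lining arterioles and those with low Sca-1 as lining sinusoids. The comparison asks how the tubulin make-up of the sorted fractions differs. The Sca-1- libraries were low in endothelial and high in platelet markers, as given below, so their values are not read as those of sinusoidal ECs.

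Microtubules are hollow polymers of heterodimers, each of which holds an alpha- and a beta-tubulin. Mammals encode several isotypes of both, which are nearly identical over most of their length and differ chiefly at the carboxy-terminal tail, the part that faces outwards and that motors, binding proteins and modifying enzymes read. Tubb1 is the beta isotype of megakaryocytes and platelets, in which a coil of microtubules, the marginal band, holds the disc shape. Tubb3 is known as the neuronal isotype, while Tubb5, Tubb4b, Tuba1b and Tuba1a are widely expressed.

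The end of the coding sequence is shown for the leading platelet isotype Tubb1 and for Tubb2a and Tubb4b, the other beta isotypes lower in Sca-1+ libraries, because it encodes the tail by which the isotypes are told apart. Each line holds the last 60 coding bases before the stop codon of the principal GENCODE M21 transcript (GRCm38, the assembly called mm10), on the coding strand. Capitals mark the bases that differ from Tubb5, the reference shown first, or that face a gap in it, in an alignment of the whole coding sequences.
Tubb5, chr17:35834985-35835044, minus strand: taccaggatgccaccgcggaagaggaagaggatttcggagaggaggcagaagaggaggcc
Tubb1, chr2:174457820-174457879, plus strand: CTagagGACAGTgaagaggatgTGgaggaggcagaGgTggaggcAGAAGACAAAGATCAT
Tubb2a, chr13:34074471-34074530, minus strand: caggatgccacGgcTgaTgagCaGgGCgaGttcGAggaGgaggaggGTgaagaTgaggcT
Tubb4b, chr2:25222311-25222370, minus strand: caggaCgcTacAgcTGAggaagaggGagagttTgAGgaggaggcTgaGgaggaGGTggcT
Tubb1 had 28 capitals in these 60 bases, against 15 in Tubb2a and 16 in Tubb4b, while Tubb3, whose end is not shown, had 29. Over the whole coding sequence Tubb1 was the most distant beta member, with 73.5% to 76.2% of aligned bases identical to the other 5. Tuba8 was the most distant alpha member, at 79.2% to 80.9%, and Tuba1a and Tuba1b were 98.3% identical.

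The likeness of these genes bears on how reads can be assigned. None of the windows of 50 bases in the transcripts of Tubb1, Tubb3 and Tubb6 occurred in another annotated gene, and 0.1% of those of Tubb5, 0.2% of Tuba8 and 1.1% of Tuba4a did. In contrast, 49.6% of the windows of Tubb2a were shared, mostly with Tubb2b, and 50.9% of those of Tubb4b, mostly with its processed copy Tubb4b-ps1. For Tuba1a the shared part was 72.9% and for Tuba1b 73.8%, mostly with Tuba1c. The counts of Tubb2a, Tubb4b, Tuba1a and Tuba1b are therefore uncertain as to the exact copy. The library kit does not mark the strand, so reads from exons that overlap those of another gene cannot be told apart for Tuba8 and Gm15856, for Tuba4a and Stk16 and for Tubb4b and Fam166a. Exons of Gm49450, on the same strand as Tuba1a and Tuba1b, overlap both, and Gm41396 overlaps Tuba1b.

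The libraries held 21581653 to 25959818 counts, so that 3 counts, taken as the floor, corresponded to 0.0996 to 0.209 CPM (counts scaled to a common total, on library sizes scaled by trimmed mean of M values, TMM). The fractions separated by the gene of the sorted antigen, with Ly6a at 874 to 1306 CPM in Sca-1+ and 0.24 to 1.49 CPM in Sca-1- libraries. The labelled cell type was checked against markers. The 20 general endothelial markers, such as Cdh5 and Kdr, came to 1.56% to 2.18% of a Sca-1+ library but to 0.0216% to 0.105% of a Sca-1- library, with none at 0 in any library. The 15 megakaryocyte and platelet markers, such as Pf4 and Gp1ba, came to 2.88% to 5.63% of a Sca-1- library and to 0.0123% to 0.0318% of a Sca-1+ library. All 20 endothelial markers were higher and all 15 megakaryocyte and platelet markers lower in Sca-1+ libraries (adjusted p under 0.05, edgeR's quasi-likelihood test). Over all genes tested, 23.3% were higher and 21.4% lower by the same test. The cell type label of the Sca-1- libraries thus went with low endothelial markers and high platelet markers. In Sca-1- replicates 2 and 3 the TMM factors were 0.581 and 0.671, against 0.988 to 1.16 in the other Sca-1- and 1.12 to 1.22 in the Sca-1+ libraries, and both set themselves apart again in several tubulins.

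Sca-1+ and Sca-1- libraries held different sets of tubulins. Sca-1+ libraries held Tubb6, Tubb2a and Tubb4b as their main beta isotypes and Tuba1a and Tuba1b as their main alpha isotypes, whereas Sca-1- libraries held mostly Tubb1 and Tuba4a. In share of the summed beta members per kilobase of exon, Tubb1 was 0.594% ± 0.502 (SD, n = 4) in Sca-1+ and 78.2% ± 2.69 (SD, n = 5) in Sca-1- libraries. Tubb6 was the mirror of it, at 36.5% ± 6.18 in Sca-1+ and 0.346% ± 0.275 in Sca-1- libraries. In both cases the fractions did not overlap. A share is formed inside a library and does not move with the scaling between libraries, but the shares of a class sum to 100% and so are not independent of each other.

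**Figure D1:**
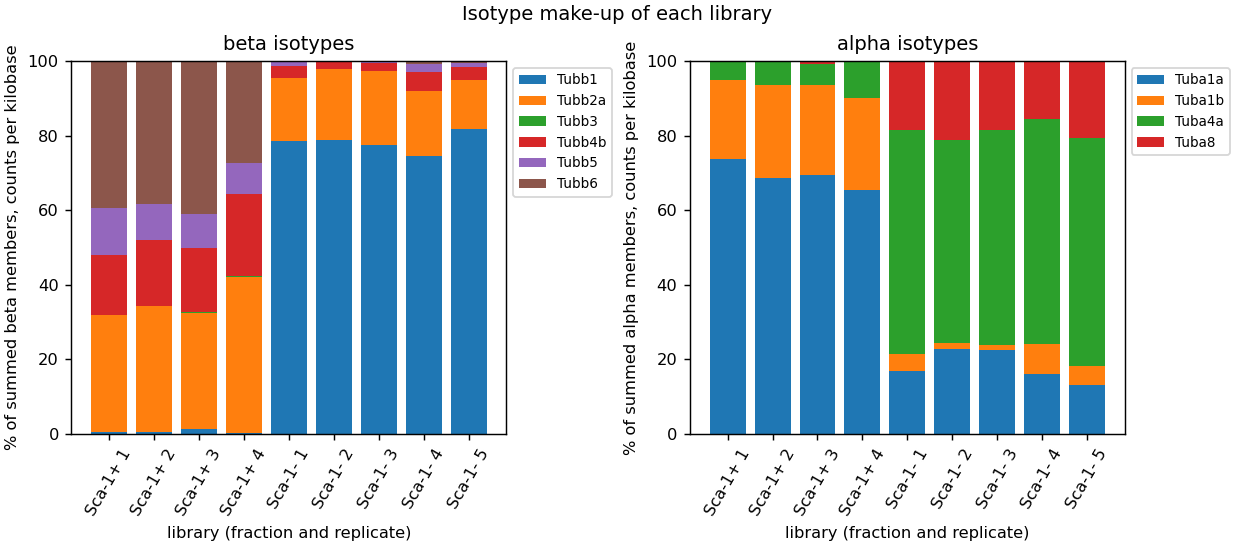
Stacked bars give, for each of the 9 libraries, the percentage of each isotype in the summed beta members (left) and in the summed alpha members (right), from counts per kilobase of exon. Tubb1 and Tuba4a make up most of the bars of the 5 Sca-1- libraries, at 74.5% to 81.9% of beta and 54.5% to 61.4% of alpha, while Tuba1a makes up 65.5% to 73.8% of alpha in the 4 Sca-1+ libraries.

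Among the beta isotypes, Tubb2a made up 34.6% ± 5.09 in Sca-1+ and 17.3% ± 2.74 in Sca-1- libraries, Tubb4b 18.3% ± 2.55 and 3.14% ± 1.24, and Tubb5 9.94% ± 1.85 and 0.97% ± 0.808. Tubb3 stayed below 1% of beta in both, at 0.12% ± 0.0831 and 0.00327% ± 0.00281. Among the alpha isotypes, Tuba1a made up 69.3% ± 3.43 in Sca-1+ and 18.3% ± 4.25 in Sca-1- libraries, and Tuba1b 23.9% ± 1.8 and 4.13% ± 2.8. Tuba4a made up 6.57% ± 2.11 and 58.8% ± 2.76, and Tuba8 0.276% ± 0.257 and 18.8% ± 2.28. None of the 10 shares overlapped between the fractions. All had p = 0.0079 in the two-sided exact permutation test over the 126 splits of 9 libraries into 4 and 5 (n = 4 and 5), the smallest that this test can give, and p = 0.0079 after Benjamini-Hochberg adjustment over a family of 12 values. These are not 10 separate differences, since a large share of Tubb1, or of Tuba4a and Tuba8, lowers the others of its class. In CPM, Tubb2a and Tubb4b were lower in Sca-1+ libraries, and Tubb3, Tubb5, Tuba1a and Tuba1b overlapped. With Sca-1- replicates 2 and 3 left out, the share of Tubb3 still differed by 0.117 percentage points with an adjusted exact p of 0.057.

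The beta members without Tubb1 were set beside each other as well, a choice made after the values were seen. Of these 5, Tubb2a made up 31.5% to 42.1% in Sca-1+ libraries and 69% to 90.3% in Sca-1- libraries. Tubb6 made up 27.4% to 41.4% and 0.375% to 3.01%. Tubb4b overlapped, at 16.2% to 22% and 8.53% to 19.5%, and so did Tubb5, at 8.26% to 12.6% and 0.765% to 8.44%, whereas Tubb3 did not, at 0.0554% to 0.242% and 0.00377% to 0.0345%. These shares still depend on each other, since the large share of Tubb2a in Sca-1- libraries lowers the rest. Tubb3 had only 2 to 23 counts in Sca-1- libraries, and its CPM overlapped between the fractions. Among the alpha members without Tuba4a and Tuba8, the shares overlapped too, with Tuba1a at 72.6% to 77.7% in Sca-1+ and 66.3% to 94.1% in Sca-1- libraries and Tuba1b at 22.3% to 27.4% and 5.92% to 33.7%.

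The remaining values of the family were the summed level and the balance of the classes. The log2 of the summed CPM of the 10 isotypes was 10.1 ± 0.0906 in Sca-1+ and 13.7 ± 1.02 in Sca-1- libraries, with no overlap (exact permutation p = 0.0079, n = 4 and 5). The log2 ratio of beta to alpha per kilobase was 0.809 ± 0.0578 in Sca-1+ and 2.38 ± 0.548 in Sca-1- libraries, again with no overlap (exact permutation p = 0.0079, n = 4 and 5). That ratio rested on the division by exon length. From read counts without it, the difference was -0.397 and did not pass the test (adjusted exact permutation p = 0.28).

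At the level of single genes, 6 of the 10 isotypes were called at an adjusted p under 0.05, 1 higher in Sca-1+ (Tubb6) and 5 lower (Tubb1, Tuba8, Tuba4a, Tubb2a and Tubb4b). The same 6 did not overlap between the fractions. Over all genes tested, 44.8% were called, 23.3% as higher in Sca-1+ and 21.4% as lower, and 43.6% did not overlap. The median log2 fold change of the isotypes, Sca-1+ over Sca-1-, was -1.39, against 0.0737 over all genes tested. Without Sca-1- replicates 2 and 3, a check added after seeing the data, 1 isotype was called higher and 6 lower, Tubb5 being the addition. Over all genes, the main fit called 7137 of 15937 and this one 7546 of 16389. In that fit the log2 fold change was -10.63 for Tubb1, -8.43 for Tuba8, -5.55 for Tuba4a, -2.43 for Tubb2a, -1.26 for Tubb4b and 2.82 for Tubb6, and that of Tuba1a, not called in either, was -0.21. The direction of Tubb6 depends on what is held constant. When libraries were scaled so that the general endothelial markers were level, the median of all genes became -4.57 and all 10 isotypes were lower in Sca-1+, Tubb6 included at -1.84, although Tubb6 stayed above that median. Over all genes, 14497 of 15937 were called under that scaling. Scaling by library size alone moved the median of all genes to 0.43 and limma voom to 0.14, and with both the isotypes kept 1 call higher and 5 lower.

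**Figure D2:**
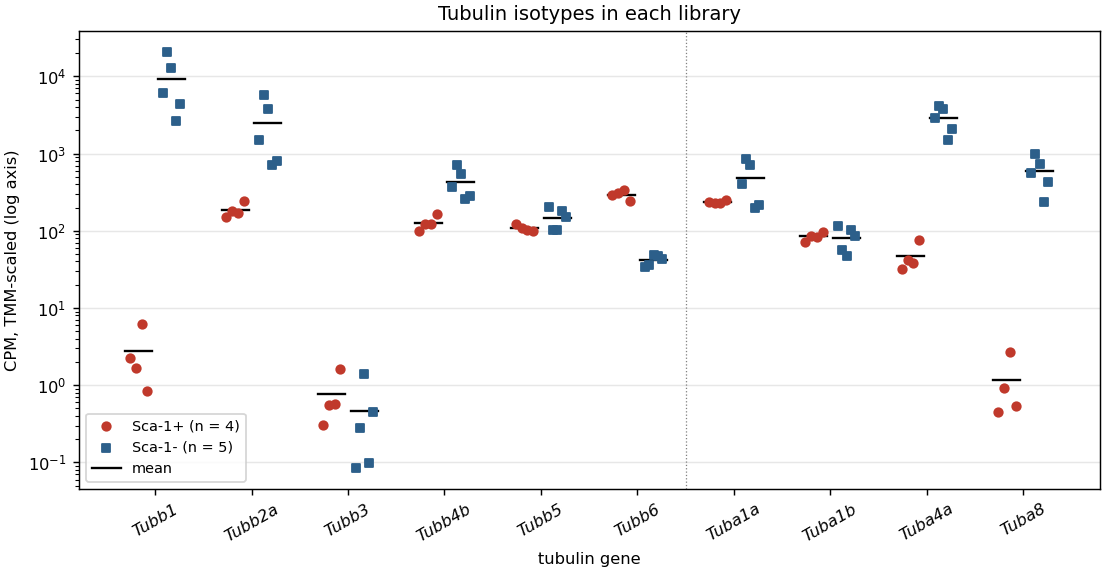
The CPM of each isotype on a log axis, with a circle for each of the 4 Sca-1+ libraries, a square for each of the 5 Sca-1- libraries and a bar for the mean. Tubb1, Tuba8 and Tuba4a lie lower in every Sca-1+ library, Tubb6 lies higher at 240 to 335 CPM against 33.6 to 48.3 CPM (a direction that reverses when libraries are scaled to endothelial markers), and Tubb3, Tubb5, Tuba1a and Tuba1b overlap.

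All positions given for genes are those of GENCODE M21 on GRCm38, from the first to the last annotated base. Tubb1 (chr2:174450695-174457882, plus strand), the platelet isotype, had 66, 48, 182 and 22 counts in Sca-1+ replicates 1 to 4. In Sca-1- replicates 1 to 5 it had 142399, 295476, 211240, 79112 and 108912 counts, between 0.305% and 1.2% of the library. It ranked between 6 and 22 among all genes by count in each of the Sca-1- libraries, and between 9698 and 13974 in the Sca-1+ libraries. In CPM, Sca-1- replicates 2 and 3 were highest at 20630 and 12689 and replicate 4 lowest at 2627. Its log2 fold change, Sca-1+ over Sca-1-, was -11.72 ± 1.14 (SE; adjusted p = 4.9e-05, edgeR's quasi-likelihood test), a 3378-fold lower level in Sca-1+ libraries, where no library was at the floor. Without Sca-1+ replicate 3, the highest of its fraction, the log2 fold change was -12.50.

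Tuba8 (chr6:121210696-121226854, plus strand), an alpha isotype of a divergent sequence, followed Tubb1 most closely among the isotypes. It had 13, 27, 80 and 14 counts in Sca-1+ replicates 1 to 4 and 13091, 14099, 12298, 7060 and 10525 counts in Sca-1- replicates 1 to 5. As for Tubb1, Sca-1+ replicate 3 was the highest of its fraction and Sca-1- replicate 4 the lowest of its own. Tuba8 changed by -8.98 ± 0.81 on the log2 scale (SE; adjusted p = 3.7e-05, edgeR), and by -9.83 without Sca-1+ replicate 3. Gm15856, whose exons overlap those of Tuba8 on the other strand, had 0 to 10 counts in Sca-1+ and 1167 to 2548 in Sca-1- libraries, with a log2 fold change of -9.30 ± 0.84 (SE), so the counts of both are uncertain.

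Tuba4a (chr1:75214228-75219865, minus strand), the leading alpha isotype of the Sca-1- libraries, had 947, 1193, 1131 and 1932 counts in Sca-1+ replicates 1 to 4. In Sca-1- replicates 1 to 5 it had 69017, 59206, 63358, 45342 and 51478 counts. Every Sca-1- library was far above every Sca-1+ library, and Sca-1+ replicate 4 was the highest of its fraction. The log2 fold change was -5.95 ± 0.49 (SE; adjusted p = 2.5e-05, edgeR), which is 62-fold. Stk16, a kinase gene that overlaps its exons on the other strand, changed by -1.52 ± 0.19 (SE), with 1103 to 1771 counts in Sca-1+ and 2364 to 3690 in Sca-1- libraries.

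Tubb2a (chr13:34074274-34078007, minus strand), a major beta isotype of both fractions, had 150, 179, 169 and 243 CPM in Sca-1+ replicates 1 to 4 and 1487, 5773, 3737, 712 and 801 CPM in Sca-1- replicates 1 to 5. The Sca-1- libraries spread widely, with replicates 2 and 3 highest as for Tubb1, but none reached down to the Sca-1+ values. In Tubb2a the log2 fold change was -3.76 ± 0.70 (SE; adjusted p = 0.0016, edgeR). Its near copy Tubb2b was at 0.477 to 3.29 CPM in Sca-1+ and 11.1 to 70.3 CPM in Sca-1- libraries and changed by -4.76 ± 0.86 (SE; adjusted p = 0.0014, edgeR). Its counts were 0.318% to 1.35% of those of Tubb2a in Sca-1+ and 1.22% to 1.83% in Sca-1- libraries.

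Tubb4b (chr2:25222160-25224702, minus strand), a widely expressed beta isotype, had 100, 121, 121 and 165 CPM in Sca-1+ replicates 1 to 4 and 365, 707, 536, 261 and 281 CPM in Sca-1- replicates 1 to 5. The fractions did not overlap, although Sca-1- replicates 4 and 5 came near. Tubb4b changed by -1.76 ± 0.34 on the log2 scale (SE; adjusted p = 0.0022, edgeR). Tubb4b-ps1, the processed copy with which it shares sequence, had a nearly equal log2 fold change of -1.80 ± 0.35 (SE; adjusted p = 0.002, edgeR). Its counts were 4.94% to 5.86% of those of Tubb4b in Sca-1+ and 5.03% to 7.32% in Sca-1- libraries, and the copy that gave rise to these reads cannot be told apart.

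Tubb6, a beta isotype with no shared windows, was the 1 isotype called higher in Sca-1+ libraries, although its sign reversed to -1.84 under scaling to endothelial markers. It had 287, 307, 335 and 240 CPM in Sca-1+ replicates 1 to 4 and 33.6, 36.2, 48.3, 47 and 43 CPM in Sca-1- replicates 1 to 5. The libraries of either fraction lay close together, and the lowest Sca-1+ library was well above the highest Sca-1- library. The log2 fold change was 2.81 ± 0.20 (SE; adjusted p = 1.6e-05, edgeR), which is 7.02-fold. Tubb6 had the smallest standard error of the 10 isotypes.

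The other 4 isotypes did not pass the test. Tuba1a (chr15:98949837-98953703, minus strand) was at 226 to 247 CPM in Sca-1+ and 195 to 845 CPM in Sca-1- libraries, with a log2 fold change of -1.02 ± 0.44 (SE; adjusted p = 0.085, edgeR). Sca-1- replicates 2 and 3 were the high libraries, at 845 and 720 CPM, and without Sca-1- replicate 4 or 5 the adjusted p was 0.029 or 0.041 (edgeR). DESeq2 called it too, at an adjusted p of 0.037.

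Tubb5 (chr17:35833921-35838306, minus strand), the common beta isotype of dividing cells, was at 98.8 to 124 CPM in Sca-1+ replicates and at 201, 101, 102, 180 and 149 CPM in Sca-1- replicates 1 to 5. Here Sca-1- replicates 2 and 3 were the low libraries and fell within the Sca-1+ range. The log2 fold change was -0.44 ± 0.25 (SE; adjusted p = 0.18, edgeR). It was called in DESeq2 (adjusted p = 0.046), without Sca-1- replicate 3 at -0.62 (adjusted p = 0.046, edgeR) and without Sca-1- replicates 2 and 3 at -0.71 (adjusted p = 0.0063, edgeR).

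Tuba1b (chr15:98931425-98934565, minus strand), the common alpha isotype, was at 70.9 to 97.2 CPM in Sca-1+ libraries and at 114, 57, 47.1, 103 and 86.2 CPM in Sca-1- replicates 1 to 5, the same order as for Tubb5 in its highest libraries. Its log2 fold change was 0.05 ± 0.28 (SE; adjusted p = 0.89, edgeR). Tubb3 (chr8:123411424-123422015, plus strand) had 9, 16, 17 and 42 counts in Sca-1+ replicates 1 to 4 and 2, 4, 23, 3 and 11 counts in Sca-1- replicates 1 to 5. It was close to the floor in both fractions, and its log2 fold change was 0.75 ± 0.86 (SE; adjusted p = 0.5, edgeR). Under scaling to endothelial markers the signs of both turned, to -4.54 for Tuba1b and -3.80 for Tubb3. Tuba1b also took a negative sign, never called, in DESeq2 (-0.01) and without Sca-1- replicate 3 (-0.17). Tubb3 was at 0.09 without Sca-1+ replicate 4 and at 1.65 without Sca-1- replicate 3, neither of them called.

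**Figure D3:**
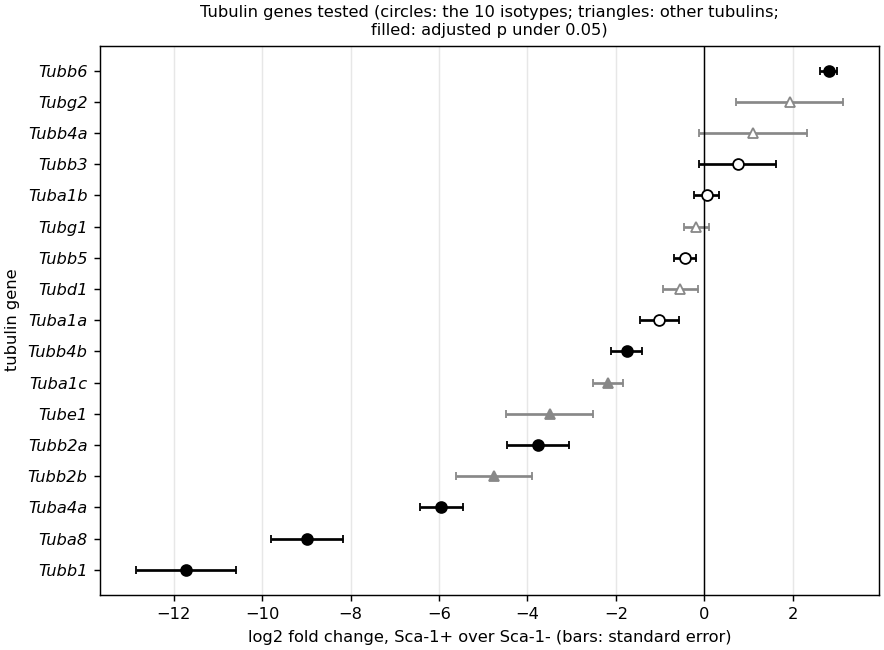
The log2 fold change, Sca-1+ over Sca-1-, of each of the 17 tubulin genes tested, with its standard error, as circles for the 10 isotypes and triangles for 7 other tubulins, filled where the adjusted p was under 0.05. The values run from -11.72 for Tubb1 to 2.81 for Tubb6, which was the only filled marker to the right of 0 (-1.84 when libraries are scaled to endothelial markers).

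The order of the levels was taken from CPM per kilobase of exon, so that genes of different length could be compared. In Sca-1+ libraries Tuba1a led at 130 ± 5.2 CPM per kilobase, followed by Tubb6 at 120 ± 16.3 and Tubb2a at 115 ± 25.2, neighbours that differed by less than their spread. Tubb4b followed at 60.8 ± 13.1, Tuba1b at 45.1 ± 5.76, Tubb5 at 32.5 ± 3.39 and Tuba4a at 12.6 ± 5.16. Tubb1 at 1.95 ± 1.69, Tuba8 at 0.513 ± 0.47 and Tubb3 at 0.41 ± 0.314 closed the order. Tuba8 and Tubb3 lay within each other's spread. Tubb1 was above Tuba8 in each Sca-1+ library, and above Tubb3 in all but replicate 4. In Sca-1- libraries the order ran from Tubb1 at 6603 ± 5259 CPM per kilobase to Tubb2a at 1554 ± 1366 and Tuba4a at 782 ± 300. Over libraries the ranges of Tubb1 and Tubb2a crossed, as did those of Tubb2a and Tuba4a, although Tubb1 was above Tubb2a in each library. Tuba1a at 264 ± 163, Tuba8 at 260 ± 127 and Tubb4b at 206 ± 90.6 came next and lay within their spread, as did Tubb5 at 44.1 ± 13.6 and Tuba1b at 43.4 ± 15.4. Tubb6 at 17.1 ± 2.66 and Tubb3 at 0.246 ± 0.287 were last.

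Markers of other cells moved with the isotypes. In Sca-1- libraries the summed CPM of the 15 megakaryocyte and platelet markers was 49656, 97031, 81492, 24849 and 34282 in replicates 1 to 5, the same order as Tubb1. In Sca-1+ libraries it was 235, 247, 261 and 109 in replicates 1 to 4, highest in replicate 3 and lowest in replicate 4 as for Tubb1, and Gp6 was at 0 in replicate 4. Set against these marker counts, Tubb1 came to 0.672% to 2.38% in Sca-1+ and 10.6% to 21.3% in Sca-1- libraries, and Tuba8 to 0.188% to 1.04% and 0.907% to 1.25%. Tuba4a ran the other way, at 13.7% to 68.3% in Sca-1+ and 4.26% to 6.11% in Sca-1- libraries, and Tubb2a at 63.8% to 222% and 2.34% to 5.95%. The part of platelet or megakaryocyte RNA in the differences of Tubb1, Tuba8, Tuba4a and Tubb2a was not tested. In bulk RNA, fewer cells of a type and less RNA per cell cannot be told apart.

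**Figure D4:**
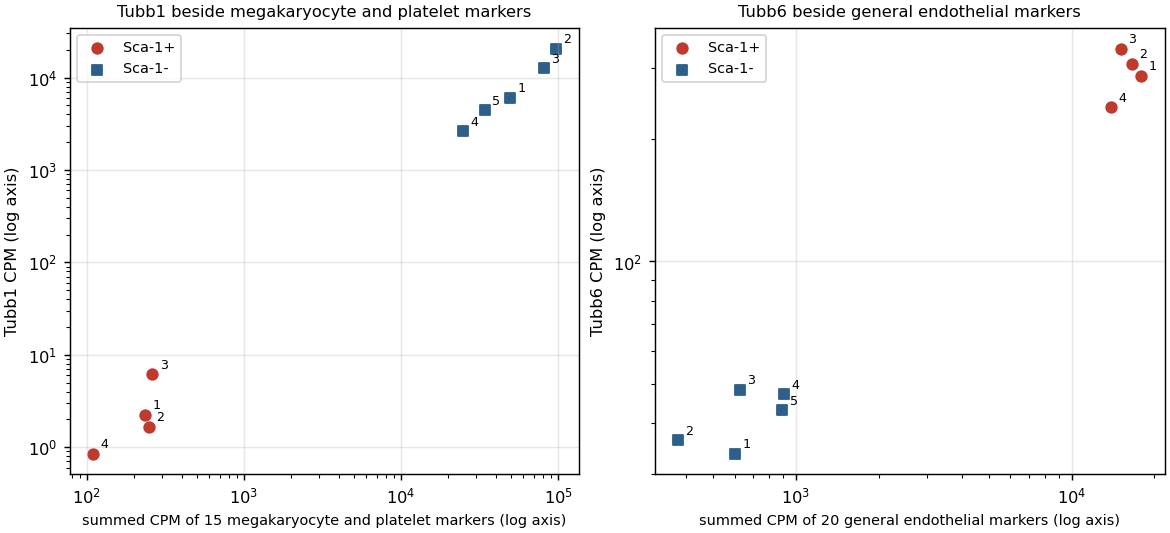
Each point is a library, numbered by replicate, with the CPM of Tubb1 beside the summed CPM of 15 megakaryocyte and platelet markers (left) and the CPM of Tubb6 beside that of 20 general endothelial markers (right), on log axes. The Sca-1- libraries lie at the upper right for Tubb1, between 24849 and 97031 marker CPM, and at the lower left for Tubb6 (higher in Sca-1+ on this scale, lower when libraries are scaled to the markers of the right panel).

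Tubb6 lay on the side of the endothelial markers, whose summed CPM was 17931, 16613, 15125 and 13945 in Sca-1+ replicates 1 to 4 and 600, 373, 628, 908 and 892 in Sca-1- replicates 1 to 5. Within the Sca-1- libraries the order of Tubb6 was not that of the markers, since replicate 3 was highest for Tubb6 and replicate 4 for the markers. The 15 mitosis genes, such as Mki67 and Top2a, had a summed CPM of 784, 544, 346, 932 and 1040 in Sca-1- replicates 1 to 5. It was 138, 108, 101 and 58.4 in Sca-1+ replicates 1 to 4. All 15 were called lower in Sca-1+, against 21.4% of all genes tested. Among Sca-1- libraries, Tubb5, Tuba1b and this sum were all lowest in replicates 2 and 3. In Sca-1+ replicates 1 to 4, Tubb5 kept the order of the sum, but Tuba1b did not. It was at 70.9, 86.3, 84 and 97.2 CPM there, lowest where the sum was highest. The 10 erythroid markers, at 1163 to 4961 CPM in Sca-1- and 106 to 229 CPM in Sca-1+ libraries, were highest in Sca-1- replicates 2 and 3. Of these, 7 were called lower, and 4 did not overlap between the fractions, against 43.6% of all genes tested. Of 12 leukocyte markers 10 were called lower, with sums of 1977 to 3938 CPM in Sca-1- and 121 to 197 CPM in Sca-1+ libraries, where Ptprc, the gene of the CD45 antigen used to sort the cells out, was at 0 in replicates 2 and 3. Their part in these differences was not tested.

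The genes with profiles most like Tubb1 and Tubb6 were found by the root mean square distance between log2 CPM profiles over the 9 libraries, each centred on its own mean. Nearest to Tubb1 were Gp1ba at 0.42 and Gp6 at 0.51, which encode platelet receptors for von Willebrand factor and collagen, then Treml1 at 0.56, P2ry12 at 0.66, the platelet ADP receptor, and Hpse at 0.66, the heparanase gene. Nearest to Tubb6 were Alg14 at 0.18, Shank3 at 0.20, Eva1b at 0.20, Elk3 at 0.21, an Ets-family factor, and Pea15a at 0.22. Among the isotypes themselves, Tubb5 and Tuba1b were closest at 0.33, followed by Tubb4b and Tuba1a at 0.54, and Tubb1 and Tuba8 stood at 1.38. These distances are not scaled, so they largely follow differences in fold change between the fractions rather than co-variation of libraries within one. The log2 fold changes of the 5 nearest genes ran from -11.73 to -10.66 for Tubb1 and from 2.56 to 2.98 for Tubb6. Those of Tubb1 and Tuba8 were -11.72 and -8.98. The profiles share the libraries and their depth, and the distances are descriptions.

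Other tubulin genes gave the family's remaining values. Of 10 such genes, 7 were tested and 3 of these were lower in Sca-1+, with a median log2 fold change of -0.54, in a table where 44.8% of all genes were called. They were Tuba1c at -2.18 ± 0.33 (SE; adjusted p = 0.00048, edgeR), Tubb2b above, and Tube1, the epsilon-tubulin of centrioles, at -3.50 ± 0.98 (SE; adjusted p = 0.015, edgeR), whose exons overlap those of Ccn6 on the other strand. Tube1 was at -4.16 without Sca-1+ replicate 1, and Tubb2b at -5.68 without Sca-1+ replicate 4. Tubg1, the gamma-tubulin that nucleates microtubules, was at 24.8 to 34.2 CPM in Sca-1+ and 22 to 48.2 CPM in Sca-1- libraries and changed by -0.18 ± 0.28 (SE; adjusted p = 0.62, edgeR). Tubg2 at 1.93 ± 1.21, Tubb4a at 1.09 ± 1.22 and the delta-tubulin Tubd1 at -0.54 ± 0.40 did not pass the test either. Without Sca-1- replicate 3, Tubg2 was called higher and Tubd1 lower, at adjusted p of 0.04 and 0.044 (edgeR). Tuba3b and Tubal3 had no counts in any library, and Tuba3a had at most 3.

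Genes that act on tubulin were counted by role, beside 23.3% of all genes called higher and 21.4% lower. Among 21 folding genes, the chaperonin and prefoldin subunits and the tubulin cofactors, 0 were higher and 8 lower in Sca-1+, with a median log2 fold change of -0.63. They included the cofactors Tbcc at -1.89 ± 0.50 and Tbcd at -1.30 ± 0.21 (SE; adjusted p = 0.011 and 0.0008, edgeR) and the chaperonin subunits Tcp1 at -1.07 ± 0.31 and Cct6a at -1.03 ± 0.25 (SE; adjusted p = 0.016 and 0.0078, edgeR). At an unadjusted p under 0.05, 1 was higher and 11 lower (edgeR). DESeq2 called 0 higher and limma voom 1. Without TMM, on library size alone, 1 of the 21 was lower and 1 higher, and the count of those lower was 5 without Sca-1+ replicate 1 or 2.

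Of the 17 modifying enzymes tested 3 were higher and 3 lower, with a median of 0.30, and the calls in sum were a smaller part of the list than the 44.8% over all genes. Ttll11, a polyglutamylase that acts on tubulin tails, went from 159 ± 107 CPM in Sca-1- to 0.96 ± 0.498 CPM in Sca-1+ libraries, a log2 fold change of -7.37 ± 0.73 (SE; adjusted p = 5.3e-05, edgeR). Ttll1, a catalytic subunit of another polyglutamylase, changed by -2.78 ± 0.27 and Ttll12 by -1.74 ± 0.25 (SE; adjusted p = 5e-05 and 0.00043, edgeR). Ttl, the ligase that returns the final tyrosine to alpha-tubulin, was higher in Sca-1+ by 1.86 ± 0.51 (SE; adjusted p = 0.014, edgeR), at 7.23 ± 1.81 against 1.98 ± 1.25 CPM, a call lost without Sca-1- replicates 2 and 3 (1.56, adjusted p = 0.06, edgeR). The count of enzymes called higher went from 3 to 1 without Sca-1- replicate 5 and without each of the Sca-1+ replicates.

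Of the 29 microtubule binding and severing proteins tested 10 were higher and 7 lower, with a median of 0.43, against 23.3% and 21.4% of all genes. Among those higher in Sca-1+ were Map4, a widely expressed stabilising protein, at 101 ± 37.7 against 7.62 ± 5.02 CPM (log2 fold change 3.73 ± 0.54, SE; adjusted p = 0.0004, edgeR), and Map1b, known from growing axons, at 137 ± 17.9 against 11.6 ± 5.74 CPM (3.57 ± 0.45, SE; adjusted p = 0.00019, edgeR). Dclk1, a kinase with doublecortin domains, changed by 4.04 ± 1.07 (SE; adjusted p = 0.011, edgeR), and by 5.02 without Sca-1- replicate 4. Fignl1, of the severing family, was lower by -3.22 ± 0.37 (SE; adjusted p = 0.00012, edgeR). The count of those lower went from 7 to 4 without each of the Sca-1+ replicates, in fits that called 5957 to 6382 genes in all against 7137 in the main fit. Under scaling to endothelial markers none of the folding, modifying or binding genes was called higher, and 21, 17 and 26 of them were called lower. Over all genes, that scaling called 14497 of 15937.

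**Figure D5:**
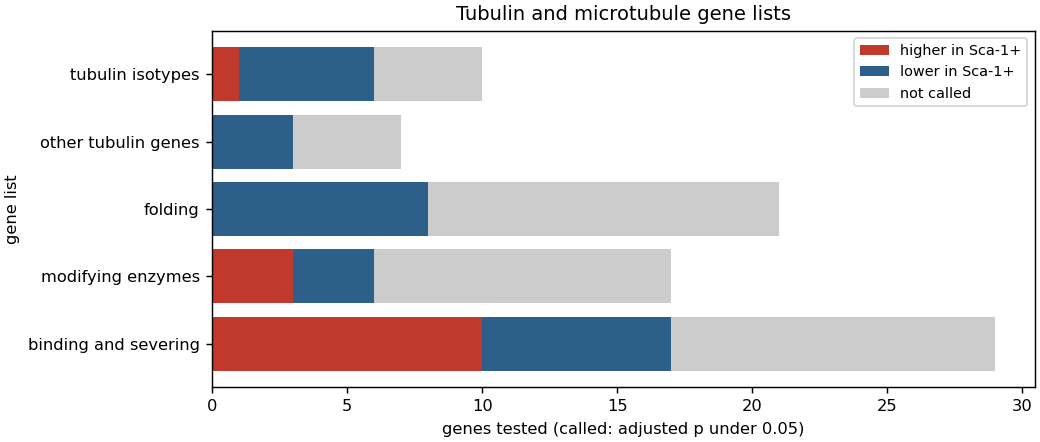
Bars give the number of genes tested in each of 5 lists, divided into those called higher in Sca-1+, called lower and not called at an adjusted p under 0.05. The isotypes held 1 higher and 5 lower of 10, the folding list 0 and 8 of 21, the modifying enzymes 3 and 3 of 17, and the binding and severing proteins 10 and 7 of 29. When libraries were scaled to endothelial markers, 0 genes of these lists were called higher, in a fit that called 14497 of 15937 genes.

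Promoters are shown for 3 isotypes that were lower in Sca-1+ libraries by very different amounts, Tubb1, Tuba8 and Tubb4b. The sequences are RefSeq's for GRCm38.p6, the 250 bases before the start of the gene, ended before the first exon annotated by GENCODE, with Ets-like GGAAG and CCAAT motifs in capitals on either strand.
Tubb1, chr2:174450345-174450594, plus strand: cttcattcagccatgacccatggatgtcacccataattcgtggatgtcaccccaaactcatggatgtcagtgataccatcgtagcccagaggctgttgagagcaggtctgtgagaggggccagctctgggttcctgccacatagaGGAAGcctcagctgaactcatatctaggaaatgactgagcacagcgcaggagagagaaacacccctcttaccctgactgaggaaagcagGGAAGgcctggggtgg
Tuba8, chr6:121210484-121210695, plus strand: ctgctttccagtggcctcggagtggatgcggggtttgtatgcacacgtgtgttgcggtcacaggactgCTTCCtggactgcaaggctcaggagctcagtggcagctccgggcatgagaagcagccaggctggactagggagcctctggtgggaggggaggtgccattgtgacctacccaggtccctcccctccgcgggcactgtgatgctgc
Tubb4b, chr2:25224703-25224952, minus strand: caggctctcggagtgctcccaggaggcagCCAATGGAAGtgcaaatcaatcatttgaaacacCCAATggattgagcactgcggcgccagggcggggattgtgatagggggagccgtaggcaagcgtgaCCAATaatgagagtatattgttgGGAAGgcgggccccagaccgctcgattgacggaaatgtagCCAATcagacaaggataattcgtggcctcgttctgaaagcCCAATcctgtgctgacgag
The windows of 9 of the 10 isotypes were matched, and that of Tubb6 was not. Several of these windows reach into the gene as GENCODE annotates it. Only 0 bases of that of Tuba4a, 48 of Tuba1a and 75 of Tuba1b lie before its first exon. GGAAG, or CTTCC on the other strand, was found in 4 of the 9 windows of 250 bases, against 64.1% of 32851 promoters, 2 times in Tubb1 and in Tubb4b and 1 time in Tuba8. CCAAT, or ATTGG, was found in 4 of the 9, against 33.8% of all, and 5 times in Tubb4b, while Tubb1 and Tuba8 had none. The GATA motif AGATAA was found in 1 of the 9 (Tubb5), against 9.99%, and TATAAA in 1 (Tubb2a), against 12.4%. TGACTCA, the core bound by AP-1 and NF-E2, was found in 0 of the 9, against 4.46%. These matches are descriptions of letters in short windows.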

How the data were processed

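Samples were grouped by the deposited labels into 4 Sca-1+ and 5 Sca-1- libraries. The authors deposited whole-number read counts per gene, not normalized. The submitters' processing notes name STAR, featureCounts and mm10, and versions, read length and strand setting are not given in the sources used here. Library RNA was amplified with a SMART-Seq kit and carries no molecular identifiers, so precision from depth (21581653 to 25959818 counts a library) reflects counting error alone.

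Tests were run with edgeR 4.0.16 under R 4.3.3. Genes entered them when they passed filterByExpr (a minimum count of 10 and total of 15), libraries were scaled by TMM, and fractions were compared by the two-sided quasi-likelihood test with Benjamini-Hochberg adjustment over 15937 genes and a threshold of 0.05. The common dispersion was 0.301. Log2 CPM used a prior count of 2. Each fraction has its own run of label numbers, and a batch tied to these numbers cannot be told apart from the fraction. Shares were computed from counts divided by the union exon length of GENCODE M21. Coding sequences were aligned with Biopython 1.88. The coding ends of the alpha members are not reported here. Steps were tested on simulated data.

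Members and lists were chosen with earlier results of these data known. Named genes were all isotypes, the other tubulins, the 4 genes of each partner list with the largest absolute log2 fold change among those called whose average log2 CPM reached 2, and the 5 nearest profiles to Tubb1 and to Tubb6. Gm15856, Stk16 and Tubb4b-ps1 were named after their values were seen. Svbp, Matcap1, Map7d3 and Ly76 did not match a gene name of the table. Alternatives were DESeq2 1.42.0, limma 3.58.1 (voom), other scalings, no low-count filter, each library left out, and a block of label numbers.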

Additional observations from a re-analysis of the deposited data

How the results depend on the processing

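Of the 200 values for single isotypes under the alternatives, 180 kept their direction and their side of the threshold, 8 kept their direction and newly passed it, 9 turned sign without being called in either fit (8 of Tuba1b and 1 of Tubb3) and 3 reversed with a call. The last 3 came from scaling to general endothelial markers, with log2 fold changes of -3.80 for Tubb3, -1.84 for Tubb6 and -4.54 for Tuba1b. That scaling lowers every gene in Sca-1+ libraries by construction, since these markers are higher there. Under it 0 isotypes were called higher and 10 lower, 6 of the other tubulins were lower, 21 folding genes were lower, 0 modifying enzymes were higher and 17 lower, and 0 binding and severing proteins were higher and 26 lower. Over all genes, 14497 of 15937 were called in that fit, so these counts are not particular to the lists.

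With limma voom 1 of the other tubulins and 1 folding gene were called higher. With library size only, 1 folding gene was called higher and 1 lower, and 4 binding and severing proteins were lower. With no low-count filter 1 modifying enzyme was higher and 4 binding and severing proteins were lower. The cause was not tested. With 1 library left out, the isotypes gave 1 call higher and 5 to 6 lower, the other tubulins 0 to 1 higher and 3 to 4 lower, the folding genes 0 to 1 higher and 5 to 12 lower, the modifying enzymes 1 to 2 higher and 3 to 4 lower, and the binding and severing proteins 7 to 10 higher and 4 to 7 lower. Fits that leave out a library have fewer samples, and over all genes they called 5957 to 6969, against 7137 in the main fit. The log2 ratio of beta to alpha lost its call from read counts with no length scaling (-0.397, adjusted exact permutation p = 0.28). The share of Tubb3 lost it without Sca-1- replicates 2 and 3 (0.117, adjusted exact permutation p = 0.057), an alternative chosen after seeing the data, in which the design leaves 3 Sca-1- libraries. The fractions still did not overlap there, at 0.0551% to 0.242% in Sca-1+ and 0.00083% to 0.00623% in Sca-1- libraries. With fewer libraries the test can give no p as small as before. The share of Tubb1 went from an adjusted exact permutation p of 0.0079 to 0.031.

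The end numbers of the labels differ between all libraries. The labels of Sca-1+ replicate 2 and Sca-1- replicate 4 share a further number, whose meaning is not given. Those of Sca-1+ replicate 3 and Sca-1- replicates 1 and 5 share a tag, part of which is in that of Sca-1- replicate 2. It resembles the name of the CD45 allele that the paper gives for B6 mice, but its meaning is not stated. The labels of Sca-1+ replicates 2 and 4 and Sca-1- replicates 3 and 4 hold wt instead. Whether these tags mark different sources of mice is not given. The end numbers 7 and 8, 13 and 14, and 15 and 16, which follow each other, were used as 3 blocks. Their deviations from the fraction means correlated at 0.147, 0.148 and 0.042, the last for the libraries that share the further number. Not every correlation was over 0.1, a chosen cut-off, so they were not taken as pairs. The correlation was not computed for other pairs of libraries, so these values cannot show whether pairing is absent. With the replicate block, 6 libraries kept 1 isotype higher and 5 lower, and 2 folding genes lower, 0 modifying enzymes higher and 4 binding and severing proteins lower. Without the block the same 6 libraries gave 4, 0 and 4. Over all genes, 4340 of 15924 were called with the block and 5360 without it. With the block Tube1 lost its call (-2.63, adjusted p = 0.11, edgeR), and the other tubulins called lower were 2, against 3 without it. Tubb3, near the floor of 3 counts, is the isotype that depth limits.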

Other observations

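Tuba1a, Tuba1b and Tuba1c lie on chromosome 15 within 1 cluster, and their counts did not keep a fixed ratio. Counts of Tuba1c were 8.31% to 12.5% of those of Tuba1b in Sca-1+ and 26.8% to 122% in Sca-1- libraries, and 3.03% to 4.93% of those of Tuba1a against 6.58% to 14.2%. Counts of Tuba1b were 29.9% to 39.3% of those of Tuba1a in Sca-1+ libraries and spread from 6.54% to 52.8% in Sca-1- libraries. These ratios were chosen after the values were seen, and the part of reads shared between these near copies was not tested. Over 44 sets of values (the 10 isotypes and the 12 shares, sums and ratios, in each fraction) no single library stood apart by Dixon's criterion.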
